A study of Mus musculus with 9 samples.

Results

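The genes described here are 9 of the 34619 unique gene symbols listed for each library: Zbtb9 and Ggnbp1 with their neighbours Bak1, Itpr3 and Cuta, and Pnoc and Fbxo16 with their neighbours Zfp395 and Elp3. They were picked by symbol because the values of Zbtb9, Ggnbp1, Pnoc and Fbxo16 in exposed and control uteri had been seen to stand apart, so every exposed value set against control below is a description without a test. All 9 symbols were found, and all 9 passed the filter of at least 1 FPKM (fragments per kilobase, corrected for the total of the library) in at least 3 libraries. Of these, 2 passed only through the control libraries (Zbtb9 and Pnoc), 2 only through the exposed libraries (Ggnbp1 and Fbxo16), and 5 were at 1 FPKM or more in all 9 libraries.

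The study sequenced mRNA from the uterus of wild-type female mice of the outbred CD-1 (ICR) stock, bought at 7 to 8 weeks of age and acclimatized for 1 week on estrogen-free food. Mice of the BPAF group received bisphenol AF and those of the BPB group bisphenol B, each by gavage for 28 days at a daily 300 µg per kg of body weight, and control mice received corn oil. Each group had 3 libraries. Bisphenol B and bisphenol AF are relatives of bisphenol A that differ at the carbon bridging the phenol rings, which bears methyl plus ethyl in bisphenol B and a pair of trifluoromethyl groups in bisphenol AF. The stage of the estrous cycle at collection is not given in the sources used here. Nothing in the labels says that the numbered libraries came from separate mice, so p-values measure the spread between libraries, which may be technical.

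Zbtb9 encodes a zinc finger protein with a BTB domain, a family of proteins that bind DNA and regulate transcription. Ggnbp1 encodes a protein that binds gametogenetin and is known from the germ cells of the mouse testis. Their neighbours belong to other pathways: Bak1 encodes a BCL2 family protein that opens the outer membrane of mitochondria in apoptosis, Itpr3 a receptor for inositol trisphosphate that releases calcium from the endoplasmic reticulum, and Cuta a small protein linked to the anchoring of acetylcholinesterase in brain. Pnoc encodes prepronociceptin, which is cut to the neuropeptide nociceptin, the ligand of the opioid-like receptor encoded by Oprl1. In the rat, nociceptin is known to act on the contraction of the pregnant uterus. Fbxo16 encodes an F-box protein, the part of an SCF ubiquitin ligase that picks substrates, Zfp395 a zinc finger protein, and Elp3 the catalytic subunit of Elongator, which modifies the wobble uridine of transfer RNAs.

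The step between values in a library gave the total behind its scaling, 12620196 reads in control 3 to 15616775 reads in BPB 2, and the number of reads behind each value. In each library 11614 to 13105 genes reached 1 FPKM. Of the summed FPKM, the 13 mitochondrial genes that code for protein held 19.6% to 27.04% in the exposed libraries, against 34.1% in control 3 and 14.02% and 14.12% in controls 1 and 2. Markers of urothelium, the lining of the urinary tract, were high in BPAF 1 and in all 3 BPB libraries, and low in BPAF 2, BPAF 3 and the controls. Their values are given with the other cell type markers.

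On mouse chromosome 17, the GENCODE M21 annotation (build GRCm38) places Zbtb9 and Ggnbp1 on the plus strand, with Zbtb9 upstream. Bak1 lies within the span of Ggnbp1 on the minus strand, Itpr3 follows downstream on the plus strand, and Cuta lies upstream of Zbtb9 on the minus strand. M21 lists Ggnbp1 under 2 gene entries. 1 of them (ENSMUSG00000117819.1) is a single readthrough transcript of 9 exons and 5012 bases. 2 of its exons overlap the shorter transcript of Zbtb9, covering 2746 of its 2796 bases, and 6 of its exons equal exons of a Ggnbp1 transcript of the other entry base for base. The other Ggnbp1 entry holds 5705 exon bases and shares 0 with that Zbtb9 transcript. How the authors' counting treated reads in the shared bases is not given in the sources used here, and Zbtb9 and Ggnbp1 are reported as uncertain for that reason.

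The readthrough transcript, the longer Zbtb9 transcript and a Ggnbp1 transcript can be told apart at the splice junctions shown here. The last 15 bases of the upstream exon are in lower case and the first 15 bases of the downstream exon in capitals (GENCODE M21, GRCm38, plus strand). None of these junctions marks the shorter Zbtb9 transcript, which shares 2746 of its 2796 bases with the readthrough. In the first sequence a Zbtb9 exon ending at position 26976395 of chromosome 17 runs on into a Ggnbp1 exon starting at 27025337, in the second the same Zbtb9 exon runs on into a further Zbtb9 exon starting at 27007192, and in the third the first exon of Ggnbp1 itself, ending at 27018170, joins the same Ggnbp1 exon.
Readthrough transcript: gctgaggaccctcagGACTGACCGACCTGG
Longer Zbtb9 transcript: gctgaggaccctcagGAAACAGAATTCCAG
Ggnbp1 transcript: tcgtcctgcctccagGACTGACCGACCTGG
The deposited values are sums per gene, so which of these junctions was read in which library was not tested.

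The pair also has separate annotated starts, whose surroundings are shown since the values of the pair lay on opposite sides of control. Each sequence is from RefSeq (GRCm38.p6, plus strand) and holds 300 bases around the start, most of them upstream. Capitals mark GC boxes (GGGCGG on either strand) and CCAAT boxes (CCAAT on either strand). The first window is chr17:26972929-26973228 and the second chr17:27017785-27018084.
Zbtb9: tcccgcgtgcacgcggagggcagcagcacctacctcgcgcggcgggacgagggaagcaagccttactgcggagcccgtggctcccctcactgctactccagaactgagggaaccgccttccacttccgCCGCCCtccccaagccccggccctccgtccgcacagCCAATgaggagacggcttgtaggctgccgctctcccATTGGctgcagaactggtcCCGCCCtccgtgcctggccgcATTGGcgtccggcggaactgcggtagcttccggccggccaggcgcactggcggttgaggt
Ggnbp1: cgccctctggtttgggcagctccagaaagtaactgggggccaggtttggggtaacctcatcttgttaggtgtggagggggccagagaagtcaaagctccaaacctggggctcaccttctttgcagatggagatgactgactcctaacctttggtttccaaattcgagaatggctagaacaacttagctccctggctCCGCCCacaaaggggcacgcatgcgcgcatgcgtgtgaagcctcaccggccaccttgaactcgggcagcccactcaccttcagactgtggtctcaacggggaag
The Zbtb9 window holds 30 CpG dinucleotides, 2 GC boxes and 3 CCAAT boxes, and the Ggnbp1 window shown 10 CpG dinucleotides and 1 GC box. RefSeq has a second Ggnbp1 window, chr17:27029009-27029308, which is not shown and holds 4 CpG dinucleotides and 1 GC box. The median over 32851 RefSeq promoter windows of this length was 7 CpG dinucleotides (quartiles 3 and 20), 35.7% of them held a GC box and 37.4% a CCAAT box. The estrogen response element (GGTCANNNTGACC) and its half-site (AGGTCA), searched on both strands, matched none of these 3 windows, against 0.07% and 16.3% of all windows. A match or its lack is a description of these letters only. RefSeq windows were matched for 5 of the 9 genes: Zbtb9, Ggnbp1, Bak1, Itpr3 and Cuta.

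Zbtb9 had 0.446, 0.514 and 0.401 FPKM in BPAF 1, 2 and 3 and 0.441, 0.503 and 0.320 FPKM in BPB 1, 2 and 3, against 7.46, 6.83 and 6.97 FPKM in controls 1, 2 and 3. All 6 exposed libraries lay below all 3 controls, and the BPAF and BPB ranges overlapped. The recovered reads numbered 15 to 21 in the BPAF libraries and 12 to 22 in the BPB libraries, against 246 to 315 in the controls. The group means were 0.454 ± 0.0570 FPKM in BPAF uteri, 0.421 ± 0.0934 FPKM in BPB uteri and 7.09 ± 0.332 FPKM in control uteri (SD, n = 3 each). Scaled to the library totals, BPAF held 6.41% of the control level of Zbtb9 (95% interval 4.75% to 8.49%, exact, for counting error only). On the log2(FPKM + 1) scale, which understates differences at low levels, Zbtb9 differed from control by -2.48 in BPAF and -2.51 in BPB (SE 0.19 each). In these bulk libraries, fewer cells of a type and less RNA per cell cannot be told apart.

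Ggnbp1 lay on the other side of control. It had 4.33, 4.13 and 5.54 FPKM in BPAF 1, 2 and 3 and 3.53, 4.0 and 5.06 FPKM in BPB 1, 2 and 3, against 0.304, 0.487 and 0.315 FPKM in controls 1, 2 and 3. Every exposed library was above every control, and the BPAF and BPB ranges overlapped again. Behind these values stood 460 to 614 recovered reads in BPAF libraries, 427 to 563 in BPB libraries and 33 to 56 in controls. The group means were 4.66 ± 0.762 FPKM in BPAF uteri, 4.20 ± 0.786 FPKM in BPB uteri and 0.369 ± 0.103 FPKM in control uteri (SD, n = 3 each). The differences from control were 2.04 in BPAF and 1.92 in BPB on the log2(FPKM + 1) scale (SE 0.22 each), and the ratios of mean FPKM were 12.65 and 11.4.

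**Figure D1:**
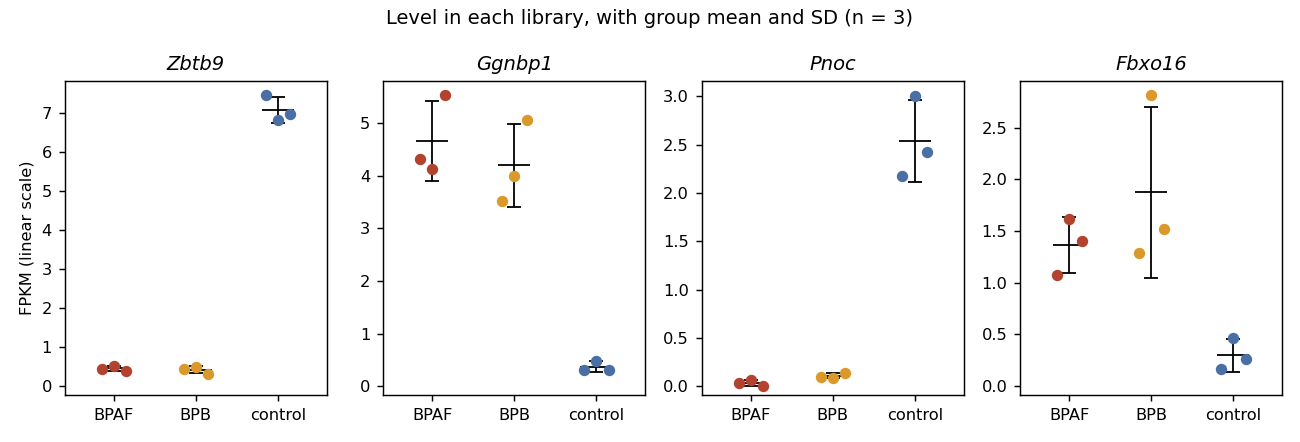
Level of Zbtb9, Ggnbp1, Pnoc and Fbxo16 in FPKM on a linear scale, with 1 point per library for BPAF, BPB and control, a horizontal line at the group mean and bars of 1 SD (n = 3). Zbtb9 and Pnoc lie below all 3 controls in the 6 exposed libraries, and Ggnbp1 and Fbxo16 lie above them.

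Because Zbtb9 and Ggnbp1 can share reads, their recovered reads were also added up and split. Zbtb9 made up 3.36% (95% exact binomial interval 1.93% to 5.40%), 4.03% (2.51% to 6.10%) and 2.39% (1.34% to 3.90%) of the reads of the pair in BPAF 1, 2 and 3. In BPB 1, 2 and 3 the share was 4.04% (2.42% to 6.32%), 4.07% (2.57% to 6.10%) and 2.09% (1.08% to 3.62%). In controls 1, 2 and 3 it was 89.2% (85.5% to 92.3%), 82.6% (77.95% to 86.5%) and 88.2% (83.8% to 91.7%). The intervals of the exposed libraries did not reach those of the controls. They cover counting error only, and the pair was chosen for standing apart, so this is a description. The sum of the pair was 39.9 ± 6.18 RPM (recovered reads scaled to a common library total) in BPAF uteri, 36.0 ± 6.31 RPM in BPB uteri and 22.9 ± 0.685 RPM in control uteri (SD, n = 3 each), and its range in exposed libraries, 30.5 to 47.0, lay above that of the controls, 22.1 to 23.4.

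**Figure D2:**
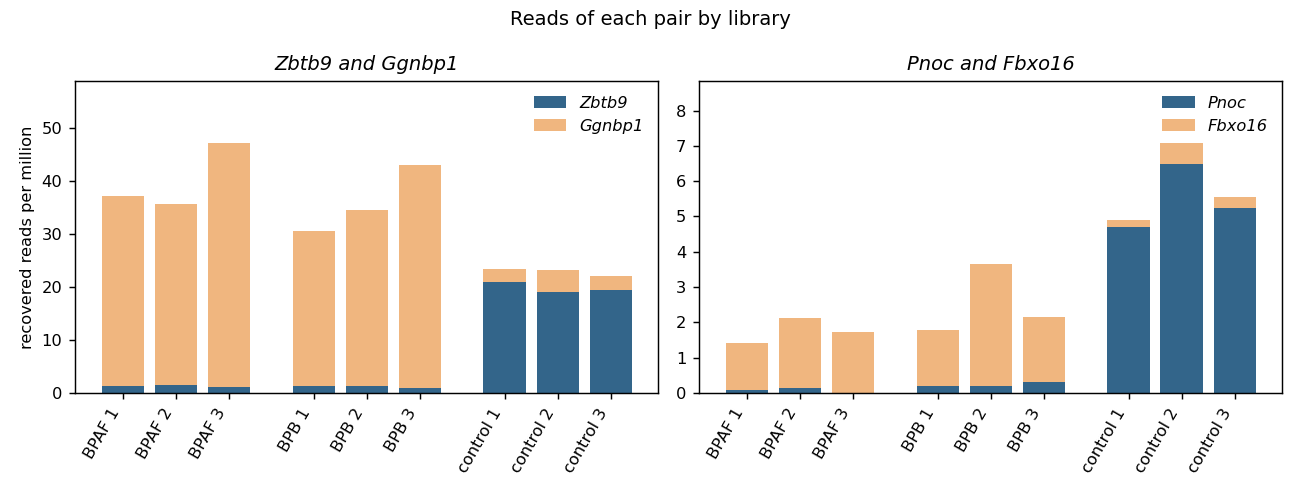
Recovered reads scaled to a common library total (RPM) for Zbtb9 and Ggnbp1 (left) and for Pnoc and Fbxo16 (right), stacked in 1 bar per library from BPAF 1 to control 3. Zbtb9 fills 2.09% to 4.07% of the exposed bars and 82.6% to 89.2% of the control bars, and the sum of Pnoc and Fbxo16 is lower in each exposed bar than in each control bar.

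The length that turns the FPKM of a gene into whole reads was the same in all 9 libraries for each of the 9 genes, so no change of the length used for scaling lay between exposed and control values. It was 2798 bases for Zbtb9, near the 2796 bases of its shorter transcript, and 8292 bases for Ggnbp1, which is above its longest M21 transcript of 5012 bases and below the 9069 exon bases of both Ggnbp1 entries joined. For Pnoc (2157 bases), Itpr3 (8990 bases) and Zfp395 (4229 bases) it equalled the length of an M21 transcript. For Bak1 it was 4396 bases, above its longest M21 transcript of 2387 bases and its 2407 exon bases in all. For Cuta (667 bases), Fbxo16 (1228 bases) and Elp3 (2891 bases) it lay between the shortest and the longest M21 transcript. Among 251 pairs of tested genes whose exons overlap by at least 50 bases on the same strand in M21, Zbtb9 and Ggnbp1 were the 1 pair with exposed libraries apart from controls in opposite directions. The pair was chosen for these values, so this count is a description.

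The 3 neighbours on chromosome 17 had overlapping exposed and control ranges, apart from Bak1 in BPB. Bak1 had 12.2, 19.8 and 6.33 FPKM in BPAF 1, 2 and 3 and 10.3, 9.98 and 6.31 FPKM in BPB 1, 2 and 3, against 26.96, 14.9 and 12.7 FPKM in controls 1, 2 and 3. The BPAF libraries overlapped the controls and the BPB libraries lay below them. The group means were 12.8 ± 6.76 FPKM in BPAF uteri, 8.86 ± 2.21 FPKM in BPB uteri and 18.2 ± 7.67 FPKM in control uteri (SD, n = 3 each). Of the 2407 exon bases of Bak1 in M21, 614 are overlapped by Ggnbp1 exons on the opposite strand. As the Bak1 length behind the values is longer than this, the bases that were counted may differ from M21. The library kit keeps the strand, but whether the authors' counting used it is not stated in the sources used here, and reads of Bak1 and Ggnbp1 may not be fully separated.

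Itpr3 had 5.15, 10.5 and 7.26 FPKM in BPAF 1, 2 and 3 and 3.64, 11.02 and 10.2 FPKM in BPB 1, 2 and 3, against 15.3, 8.60 and 3.48 FPKM in controls 1, 2 and 3. The 3 groups overlapped. Its difference from control was -0.09 in BPAF and -0.05 in BPB on the log2(FPKM + 1) scale (SE 0.52 each), and became 0.35 and 0.38 without control 1. Cuta had 67.5, 70.0 and 39.9 FPKM in BPAF 1, 2 and 3 and 61.8, 46.6 and 43.7 FPKM in BPB 1, 2 and 3, against 45.3, 43.0 and 45.0 FPKM in controls 1, 2 and 3. The controls of Cuta averaged 44.5 ± 1.24 FPKM (SD, n = 3), and both exposed ranges overlapped them. Cuta shares 1370 exon bases with Phf1 on the other strand.

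**Figure D3:**
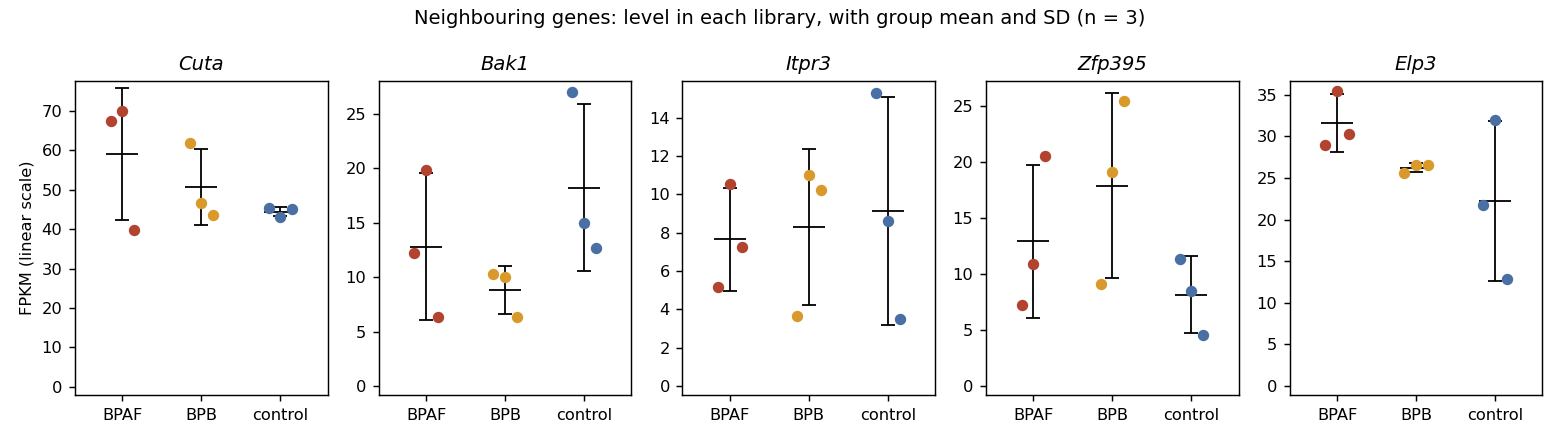
Level of the 5 neighbouring genes Cuta, Bak1, Itpr3, Zfp395 and Elp3 in FPKM on a linear scale, with 1 point per library, the group mean and bars of 1 SD (n = 3) for BPAF, BPB and control. Exposed and control points overlap in every panel, and for Bak1 the BPB points alone lie below the 3 controls.

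On mouse chromosome 14, M21 places Fbxo16 and Zfp395 on the plus strand, followed by Pnoc and Elp3 on the minus strand. Pnoc shares 0 exon bases with Fbxo16, Zfp395 and Elp3. The product of Pnoc is shown by the coding stretch of nociceptin in the longest Pnoc transcript (GENCODE M21, GRCm38, minus strand), with the 17 codons of the peptide in capitals between the lower-case codons of the lysine and arginine pairs at which the precursor is cut.
Pnoc: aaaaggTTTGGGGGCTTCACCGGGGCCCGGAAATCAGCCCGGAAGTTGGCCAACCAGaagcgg

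Pnoc had 0.0362 and 0.0635 FPKM in BPAF 1 and 2, a listed level of 0 in BPAF 3, and 0.0953, 0.0891 and 0.138 FPKM in BPB 1, 2 and 3, against 2.18, 3.01 and 2.42 FPKM in controls 1, 2 and 3. All 6 exposed libraries lay below the controls. These levels rest on 1, 2 and 0 recovered reads in BPAF 1, 2 and 3 and 3, 3 and 4 reads in BPB 1, 2 and 3, against 71, 90 and 66 reads in controls 1, 2 and 3. At its depth, the count of 0 in BPAF 3 allows a level of up to 0.104 FPKM. Summed over the 3 libraries and scaled to reads, Pnoc in BPAF stood at 1.35% of control (95% interval 0.276% to 3.99%, exact, for counting error only) and Pnoc in BPB at 4.20% (1.99% to 7.86%). The group means were 0.0332 ± 0.0319 FPKM in BPAF uteri, 0.1075 ± 0.0268 FPKM in BPB uteri and 2.54 ± 0.426 FPKM in control uteri (SD, n = 3 each).

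Fbxo16 had 1.08, 1.62 and 1.40 FPKM in BPAF 1, 2 and 3 and 1.28, 2.82 and 1.52 FPKM in BPB 1, 2 and 3, against 0.162, 0.470 and 0.258 FPKM in controls 1, 2 and 3. Every exposed library was above every control. The recovered reads were 17 to 29 in BPAF and 23 to 54 in BPB, against 3 to 8 in control, so that single reads weigh on the control values. The group means were 1.37 ± 0.271 FPKM in BPAF uteri, 1.87 ± 0.826 FPKM in BPB uteri and 0.297 ± 0.158 FPKM in control uteri (SD, n = 3 each), and the differences from control were 0.87 in BPAF and 1.12 in BPB on the log2(FPKM + 1) scale (SE 0.25 each). The highest value, 2.82 FPKM in BPB 2, set the wider spread of BPB.

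Taken as a pair, Pnoc and Fbxo16 summed to 1.40 to 2.12 RPM in BPAF and 1.78 to 3.65 RPM in BPB, against 4.91 to 7.07 RPM in control. Their sum was thus lower in exposed libraries, where the sum of Zbtb9 and Ggnbp1 was higher. Pnoc took 0% to 6.45% of the reads of the pair in BPAF libraries, 5.26% to 13.8% in BPB libraries and 91.8% to 95.95% in controls. With 18 to 57 reads of the pair in an exposed library, the exact binomial intervals reached up to 31.7%.

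Zfp395 lies between Fbxo16 and Pnoc, and Elp3 beyond Pnoc. Zfp395 had 7.30, 10.9 and 20.5 FPKM in BPAF 1, 2 and 3 and 9.10, 19.1 and 25.5 FPKM in BPB 1, 2 and 3, against 11.4, 8.54 and 4.57 FPKM in controls 1, 2 and 3. The groups overlapped, and the spread within each was wide, with means of 12.9 ± 6.84 FPKM in BPAF uteri, 17.9 ± 8.26 FPKM in BPB uteri and 8.17 ± 3.43 FPKM in control uteri (SD, n = 3 each). Elp3 had 28.99, 35.5 and 30.3 FPKM in BPAF 1, 2 and 3 and 25.6, 26.5 and 26.6 FPKM in BPB 1, 2 and 3, against 21.8, 32.0 and 12.9 FPKM in controls 1, 2 and 3. Both exposed ranges overlapped a wide control range. Without control 3, which had its lowest value, the control mean of Elp3 was 26.9 FPKM in place of 22.2 FPKM.

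Of the 9 genes, 4 had their 6 exposed libraries wholly apart from the 3 controls: Ggnbp1 and Fbxo16 above them, Zbtb9 and Pnoc below them. Over all 13743 tested genes this held for 10.2%, 8.53% above and 1.69% below. In the limma fit over all tested genes, 0.0218% (3 genes) were called between BPAF and control and 2.55% (351 genes) between BPB and control at a Benjamini-Hochberg adjusted p under 0.05. The 9 genes were chosen from these contrasts, so nothing is read from these counts. With 1 library left out the counts were 0 to 2 and 0 to 436. Both comparisons use the same 3 control libraries and are not independent of each other. Leaving out control 3, the library with the highest mitochondrial share, left control means of 7.15 FPKM for Zbtb9, 0.395 FPKM for Ggnbp1, 2.596 FPKM for Pnoc and 0.316 FPKM for Fbxo16, against 7.09, 0.369, 2.54 and 0.297 FPKM with it.

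The contrast of the related bisphenols, given at the same dose by mass and for the same time, did not serve to choose the genes and was tested for all 9, with p-values adjusted over the 13743 tested genes. None of the 9 was called in limma (adjusted p from 0.990 to 0.998), where 0.24% of all tested genes (33, all lower in BPAF) were called. With the replicate number as a block, 0 genes were called over all tested genes. The BPAF minus BPB difference on the log2(FPKM + 1) scale was 0.03 for Zbtb9 (95% interval -0.39 to 0.46), 0.13 for Ggnbp1 (-0.36 to 0.61), -0.10 for Pnoc (-0.54 to 0.34) and -0.25 for Fbxo16 (-0.82 to 0.32). For the neighbours the intervals were wider and ran from -1.51 to 0.62 for Zfp395, from -1.2 to 1.14 for Itpr3, from -0.55 to 1.32 for Bak1, from -0.44 to 0.82 for Cuta and from -0.44 to 0.95 for Elp3. The interval of Pnoc, on 0 to 4 reads a library, holds for a pseudocount of 1 only: the difference was -0.66 at a pseudocount of 0.1 and -1.84 at 0.01. Zbtb9, like Pnoc, passed the filter only through the controls, and had 0.320 to 0.514 FPKM in exposed libraries. At such levels the log2(FPKM + 1) scale leaves little room for a difference. Zbtb9, Ggnbp1, Pnoc and Fbxo16 were picked because exposed and control values stood apart, which can favour small differences between the exposed groups. A missed threshold therefore does not show that the bisphenols act alike.

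For 2 genes the 3 BPAF libraries did not overlap the 3 BPB libraries, as for 13.0% of all tested genes. Pnoc lay lower in BPAF, on 0 to 2 reads against 3 to 4 reads in BPB, and Elp3 lay higher in BPAF, at 28.99 to 35.5 FPKM against 25.6 to 26.6 FPKM in BPB. The log2 ratio of Zbtb9 to Ggnbp1, taken on FPKM + 1, was -1.95 ± 0.239 in BPAF and -1.86 ± 0.295 in BPB (SD, n = 3 each; exact permutation test, two-sided p = 0.5). That of Pnoc to Fbxo16 was -1.19 ± 0.161 in BPAF and -1.34 ± 0.410 in BPB (exact permutation test, two-sided p = 0.8). With 3 libraries against 3 the smallest p such a test allows is 0.1.

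Same-numbered BPAF and BPB libraries deviated together, but so did some exposed and control libraries of different numbers, so this pairing is uncertain. The differences were also taken within the 3 pairs of a number, an analysis added after seeing the data. The BPAF minus BPB difference in the log2 ratio of Zbtb9 to Ggnbp1 was -0.23, -0.03 and -0.02 in pairs 1, 2 and 3 (exact paired permutation test, two-sided p = 0.25, the smallest that 3 pairs allow). For Pnoc to Fbxo16 it was 0.05, 0.51 and -0.12 (exact paired permutation test, two-sided p = 0.75), again mostly following Fbxo16. Of the 9 genes, 4 were higher in BPAF in all 3 pairs (Zbtb9, Ggnbp1, Bak1 and Elp3), 3 were lower in all 3 (Pnoc, Fbxo16 and Zfp395), and Cuta and Itpr3 were mixed. Over all tested genes, 37.4% differed in 1 direction in all 3 pairs.

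The genes around both loci were used to see how far along the chromosome such differences ran. Of the 10 nearest protein-coding genes of M21 on each side of each locus, 39 of 40 were found by symbol and 29 passed the filter. None of the 29 was called by limma after Benjamini-Hochberg adjustment in any of the 3 comparisons. Of all tested genes, 0.0218% were called between BPAF and control, 2.55% between BPB and control and 0.24% between BPAF and BPB. At these shares 29 genes are too few for a lack of calls to show how far the differences ran. At an unadjusted p under 0.05 there were 5 of 29 between BPAF and control, 8 between BPB and control and 1 between BPAF and BPB, where all tested genes gave 12.8%, 17.4% and 6.75%. The median log2 difference of the 29 was 0.308 in BPAF against control and 0.296 in BPB against control, beside 0.212 and 0.151 over all tested genes.

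Upstream of Zbtb9, Phf1, a protein of Polycomb complexes, averaged 17.4 ± 4.08 FPKM in BPAF uteri, 21.6 ± 2.09 in BPB uteri and 11.9 ± 3.001 in control uteri (SD, n = 3 each), and Kifc5b, a kinesin, 3.38 ± 2.17, 1.72 ± 0.238 and 2.50 ± 0.973 FPKM in the same order. Downstream, Uqcc2, an assembly factor of respiratory complex III, averaged 21.6 ± 12.8 FPKM in BPAF uteri, 22.9 ± 13.1 in BPB uteri and 23.5 ± 14.5 in control uteri. Lemd2, a protein of the inner nuclear membrane, averaged 24.1 ± 3.16, 23.1 ± 2.30 and 18.7 ± 2.21 FPKM in the same order, and Hmga1, a chromatin protein, 2.41 ± 1.15, 2.19 ± 0.813 and 0.820 ± 0.381 FPKM. Exposed and control libraries overlapped for all 5 of these genes. Further out, Bnip1 and AI413582, named after their values were seen, were the 2 of 29 tested flanking genes whose exposed libraries lay above all controls, as did 8.53% of all tested genes.

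Around Pnoc and Fbxo16, the Wnt receptor gene Fzd3 averaged 2.04 ± 0.620 FPKM in BPAF uteri, 2.38 ± 0.275 in BPB uteri and 1.18 ± 0.524 in control uteri (SD, n = 3 each), with an adjusted p of 0.444 and 0.215 in limma for BPAF and BPB against control. Extl3, an enzyme of heparan sulfate synthesis, averaged 19.8 ± 4.09, 18.3 ± 2.80 and 18.5 ± 10.6 FPKM in BPAF, BPB and control, and Ints9, a subunit of the Integrator complex, 8.86 ± 2.26, 8.62 ± 1.51 and 8.47 ± 2.11 FPKM. On the Elp3 side, the ferritin receptor gene Scara5 averaged 10.4 ± 11.2 FPKM in BPAF uteri, 12.9 ± 1.87 in BPB uteri and 3.24 ± 0.891 in control uteri. It was called between BPB and control when those 6 libraries were fitted alone (limma adjusted p = 0.0153), against 0.192 in the fit of all 9 libraries. The mitotic kinase gene Pbk averaged 15.9 ± 11.3, 3.93 ± 3.01 and 10.2 ± 5.04 FPKM in BPAF, BPB and control, and Esco2, an enzyme that acetylates cohesin, 5.004 ± 3.04, 1.75 ± 1.16 and 3.49 ± 2.19 FPKM. All 6 had exposed libraries that overlapped the controls.

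**Figure D4:**
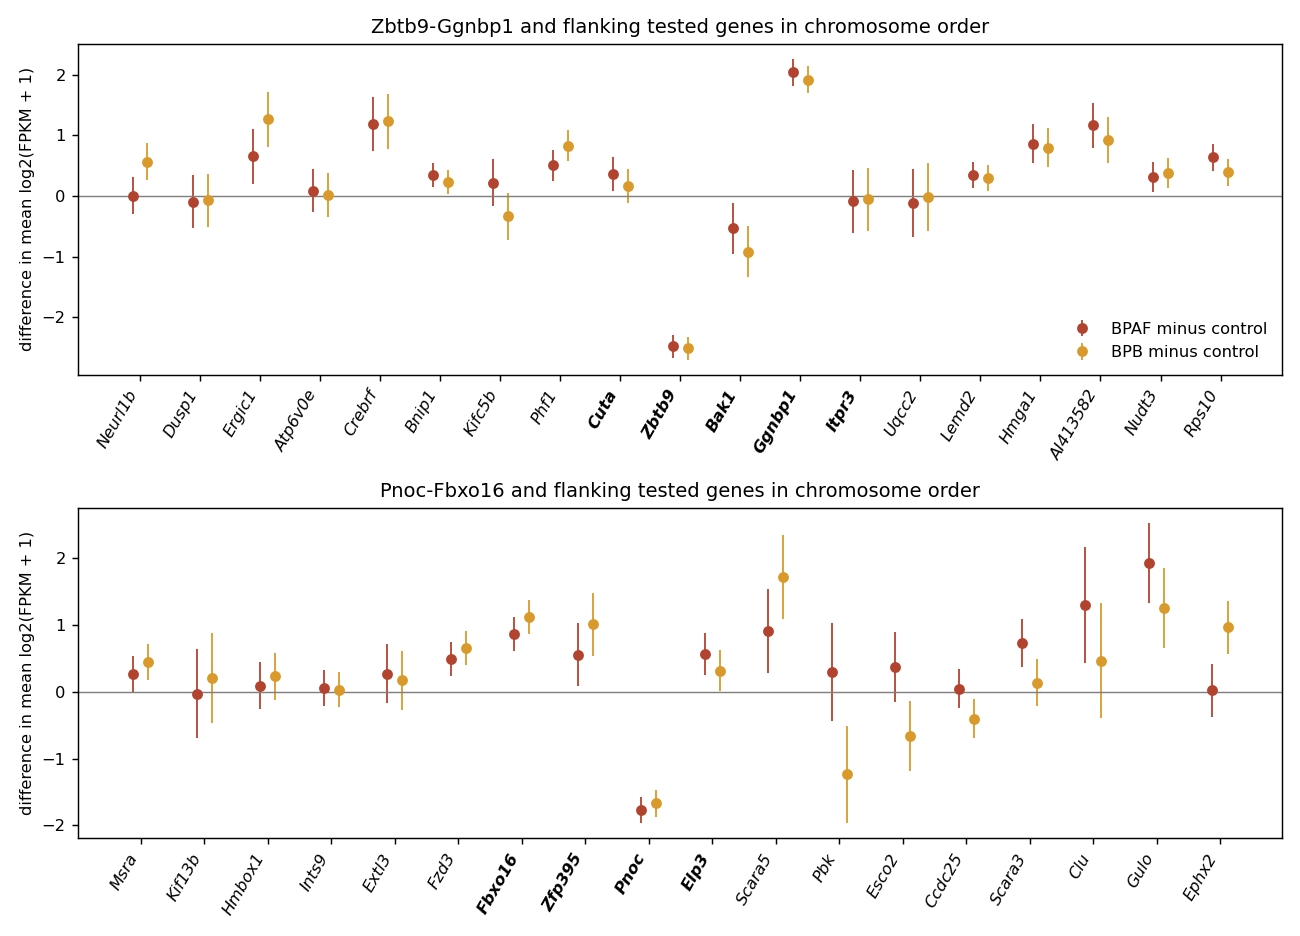
Difference in mean log2(FPKM + 1) from control for BPAF and BPB, with bars of 1 SE, for tested genes of the Zbtb9-Ggnbp1 region (top) and of the Pnoc-Fbxo16 region (bottom) in the order of M21, with the 9 genes described here in bold. Zbtb9 at -2.48 and -2.51 and Ggnbp1 at 2.04 and 1.92 stand away from the genes beside them. Zbtb9, Ggnbp1, Pnoc and Fbxo16 were chosen for their values in these contrasts and the flanking genes were not, so this is a description. Pnoc at -1.77 and -1.67 lies among genes with positive or less negative differences. On this scale, which understates differences at low levels, Fbxo16 at 0.87 and 1.12 lies nearer to control than Gulo at 1.94 and 1.26 and Scara5 at 0.91 and 1.73 (BPAF, then BPB). The SE is 0.25 for Fbxo16, 0.60 for Gulo and 0.63 for Scara5. Exposed and control libraries overlapped for Gulo and Scara5 and not for Fbxo16.

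Genes that work with the 9 were examined through 7 lists chosen by function. No gene of any list was called by limma after Benjamini-Hochberg adjustment in any comparison. With 0.0218%, 2.55% and 0.24% of all tested genes called (BPAF against control, BPB against control, BPAF against BPB), short lists can hold none by size alone. For the opioid peptides, their receptors and processing enzymes, 2 of 10 genes passed the filter. These were Penk, the enkephalin precursor, at 17.2 ± 12.2 FPKM in BPAF uteri, 16.95 ± 9.87 in BPB uteri and 7.85 ± 1.84 in control uteri, and Cpe, which trims peptide precursors, at 154 ± 107, 152 ± 60.9 and 46.3 ± 12.5 FPKM (SD, n = 3 each). Cpe was 1 of 2 at an unadjusted p under 0.05 in each exposed group, with an adjusted p of 0.309 in BPAF and 0.131 in BPB against control, and 0 of 2 were between BPAF and BPB. Oprl1, the receptor of nociceptin, averaged 0.0101 FPKM in BPAF uteri, 0.00147 in BPB uteri and 0.00348 in control uteri and was not tested.

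The list of gametogenetin (Ggn) and its partners held 5 genes, of which 3 were tested: Ggnbp2, Fancl and Cryz. Their median log2 difference was 0.02 in BPAF and -0.12 in BPB against control, and 0 of 3 had an unadjusted p under 0.05 in limma in any comparison. Ggnbp2, the other gametogenetin binding protein gene, averaged 14.6 ± 1.48 FPKM in BPAF uteri, 13.2 ± 1.197 in BPB uteri and 14.7 ± 4.36 in control uteri (SD, n = 3 each). Ggn itself, at 0.311 FPKM in BPAF uteri, 0.562 in BPB uteri and 0.324 in control uteri, was under the filter. The BCL2 family list held 16 genes besides Bak1, among them Vdac2, which is not a member of the family. Of the 16, 15 were tested, and their median difference was 0.71 in BPAF and 0.31 in BPB against control. All tested genes had medians of 0.212 and 0.151. 7 of the 15 in BPAF and 1 of the 15 in BPB had an unadjusted p under 0.05 against control, and 2 did so between BPAF and BPB, where all tested genes gave 12.8%, 17.4% and 6.75%.

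Of 10 genes of inositol trisphosphate receptors and calcium release, 7 were tested, with a median of 0.22 in BPAF and 0.70 in BPB against control and -0.72 between BPAF and BPB. The counts at an unadjusted p under 0.05 were 0, 3 and 4 of the 7 in these comparisons, beside the same 12.8%, 17.4% and 6.75% of all tested genes. Without BPAF 1, the calcium pump gene Atp2a3 was called between BPB and control (limma adjusted p = 0.0495, against 0.0602 with it). Smooth muscle markers summed to 552 to 2089 FPKM in BPAF and 4837 to 7586 in BPB, against 2219 to 3961 in control. Like the median of this list, they were higher in BPB than in control and lower in BPAF than in BPB. In BPAF they lay below control, where the list median was 0.22. Their part in the values of this list was not tested. For the remaining lists the medians were 0.33 in BPAF and 0.20 in BPB against control for 10 Elongator and wobble uridine genes, 0.24 and 0.05 for 7 SCF core genes, and 0.19 and 0.15 for 14 zinc finger genes related to Zbtb9 or Zfp395. Between BPAF and BPB the medians were 0.14, 0.26 and -0.03. Of these 3 lists, 1 zinc finger gene in BPB against control had an unadjusted p under 0.05 and none of the others in any comparison.

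Markers of uterine and other cell types were read beside the 9 genes. All 6 epithelial, 5 stromal and 5 smooth muscle markers were found in the libraries, with 1 epithelial marker under 1 FPKM in control 2. The 7 urothelial markers summed to 1654, 6.99 and 10.5 FPKM in BPAF 1, 2 and 3 and to 1872, 2713 and 3125 FPKM in BPB 1, 2 and 3, against 4.07, 5.70 and 80.3 FPKM in controls 1, 2 and 3. Upk3a, which defines umbrella cells, was at 0 in BPAF 2, BPAF 3 and all 3 controls. In BPAF 2 and BPAF 3, with sums near those of controls 1 and 2, Zbtb9 was at 0.514 and 0.401 FPKM and Ggnbp1 at 4.13 and 5.54 FPKM, beside 0.320 to 0.503 FPKM and 3.53 to 5.06 FPKM in the 4 libraries with high sums. In the same 2 libraries Pnoc had 2 and 0 reads and Fbxo16 1.62 and 1.40 FPKM, beside 1 to 4 reads and 1.08 to 2.82 FPKM. The part of urothelial content in these values was not tested.

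Ggnbp1 is known from male germ cells, and 4 of the 5 male germ cell markers (Tnp1, Prm1, Prm2 and Acrv1) were under 0.1 FPKM in all 9 libraries. The fifth, the germ cell helicase gene Ddx4, had 0.137, 0.553 and 0.236 FPKM in BPAF 1, 2 and 3 and 0.481, 0.202 and 0.236 FPKM in BPB 1, 2 and 3, against 3.09, 1.01 and 15.7 FPKM in controls 1, 2 and 3. Ddx4 thus lay on the side of Zbtb9 and Pnoc and opposite to Ggnbp1, and its part in these values was not tested. For Pnoc, 5 neuronal markers summed to 0.787 to 3.88 FPKM in BPAF and 1.59 to 3.06 FPKM in BPB, against 0.493 to 1.72 FPKM in control, and Elavl4 was under 0.1 FPKM in every library. The 6 markers of B and plasma cells summed to 7.73 to 31.9 FPKM in BPAF and 3.43 to 7.81 FPKM in BPB, against 3.53 to 23.5 FPKM in control, with Ms4a1 under 0.1 FPKM throughout. Both exposed groups overlapped the controls in these sums. The 4 markers of oviduct epithelium (Foxj1, Ovgp1, Pax8 and Tppp3) summed to 47.5 to 47.97 FPKM in BPAF, 32.8 to 63.0 FPKM in BPB and 40.1 to 47.8 FPKM in control. Single markers varied more than these sums. Ovgp1 ran from 0.413 FPKM in control 1 to 20.7 FPKM in BPAF 3, and Foxj1 from 0.202 FPKM in control 1 to 5.48 FPKM in BPAF 2. Pax8 ran from 3.20 FPKM in BPB 1 to 13.98 FPKM in control 1, and Tppp3 from 16.5 FPKM in BPAF 3 to 48.8 FPKM in BPB 1.

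Across the 9 libraries, the levels of the 4 leading genes ran closely together or against each other on the log2(FPKM + 1) scale. Pearson's r was -0.99 between Zbtb9 and Ggnbp1, 0.99 between Zbtb9 and Pnoc, -0.88 between Zbtb9 and Fbxo16 and -0.86 between Pnoc and Fbxo16. These values describe libraries that fall into an exposed and a control set and share their depth, so they mostly restate that split. Among 12508 other tested genes with a gene name, those most like Zbtb9 were Grpr, Tgm1, Flrt2 and Trim15 (r from 0.96 to 0.99), and those most opposite were Zfp740, Amt, Rassf10 and Ring1 (r from -0.97 to -0.96). Grpr, the receptor of gastrin-releasing peptide, averaged 0.0955 ± 0.0374 FPKM in BPAF uteri, 0.0268 ± 0.0255 in BPB uteri and 1.52 ± 0.311 in control uteri (SD, n = 3 each). Flrt2, a cell adhesion protein gene, averaged 2.86 ± 0.858 FPKM in BPAF uteri, 2.90 ± 1.14 in BPB uteri and 11.3 ± 0.845 in control uteri.

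The genes most like Ggnbp1 were Ldb1, Zbtb25, Ccdc181 and Bmpr1b (r from 0.97 to 0.98), and those most opposite were Flrt2, Grpr, Il1f9 and Omd (r from -0.98 to -0.96). Ldb1, a cofactor of LIM domain proteins, averaged 25.4 ± 4.01 FPKM in BPAF uteri, 23.4 ± 1.86 in BPB uteri and 12.6 ± 1.38 in control uteri (SD, n = 3 each). Those most like Pnoc were Tgm1, Grpr, Has1 and Cilp (r from 0.96 to 0.98), and the most opposite were Zfp740, Terf2ip, Ccdc61 and Rassf10 (r from -0.97 to -0.96). Tgm1, the transglutaminase of the epidermis, averaged 0.517 ± 0.121 FPKM in BPAF uteri, 0.434 ± 0.144 in BPB uteri and 1.95 ± 0.244 in control uteri.

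Among the genes most like Fbxo16 were Plxnb1, Tha1 and Nr1d1 (r = 0.94 each), and the most opposite were Gpr83, Ccl12, Ctsc and Il1f9 (r from -0.95 to -0.93). Nr1d1, which encodes the clock repressor REV-ERB alpha, averaged 16.5 ± 2.05 FPKM in BPAF uteri, 26.6 ± 11.8 in BPB uteri and 2.83 ± 1.03 in control uteri (SD, n = 3 each). Plxnb1, a semaphorin receptor gene, averaged 7.42 ± 0.701, 10.4 ± 2.20 and 1.497 ± 0.749 FPKM in BPAF, BPB and control.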

How the data were processed

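Messenger RNA of 9 mouse uterus libraries was sequenced from a stranded kit, per the labels' protocols. The values the authors deposited, 1 per gene symbol and library, were read as FPKM from the values themselves, since the headers name no unit. The sources used here do not give the aligner, counter, build or annotation. Of 34745 lines, 126 were dropped because their symbol, 1 of 59, occurs more than once.

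Recovered reads were found by multiplying FPKM by a length: for 13305 genes with 1 GENCODE M21 transcript, 84.8% to 86.7% of the values lay within 0.01 of whole multiples of 1 step, which gives the library's total. For each of the 9 genes the shortest length that made all 9 libraries whole within 0.03 reads was taken. M21 served for lengths, gene order and overlaps, and RefSeq for promoter sequences.

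Differences were fitted with limma 3.58.1 (R 4.3.3) with trend and robust estimation on log2(FPKM + 1), all 9 libraries, group as the only term. Tested were the 13743 genes that reached 1 FPKM in 3 or more libraries, with Benjamini-Hochberg adjustment and calls under 0.05, two-sided. As the files hold no counts, the branch of the design for normalized values was used. The scripts were tested on simulated data.

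The 9 genes, the gene lists and the markers were chosen with earlier results of these data known. Named besides the 9 genes are flanking or list genes called in a comparison, the 3 nearest tested flanking genes on each side, and the 4 genes of highest and of lowest Pearson r with each of Zbtb9, Ggnbp1, Pnoc and Fbxo16. Genes outside this rule, such as Penk, Cpe, Oprl1, Ggnbp2 and the marker Ddx4, were named after their values were seen, and 2 genes that the rule names are not reported here.

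Libraries with the same replicate number deviated together between BPAF and BPB (correlations 0.343, 0.339 and 0.484), which by the criterion of more than 0.1 in every pair treats them as paired. The source of this pairing is the data, not the labels. Exposed and control numbers did not pair (-0.399 to -0.079). BPAF and BPB libraries of different numbers gave -0.337 to -0.0721. Deviations were taken from the group mean and cancel within a group, so positive correlations bring negative ones with them. These negative values are thus partly built in and are no separate evidence of pairing. Some exposed and control libraries of different numbers deviated together as closely, such as BPB 1 with control 3 (0.448) and BPB 3 with control 2 (0.372). High correlations thus also arose between libraries that share no number, so the pairing of BPAF and BPB is uncertain. Alternatives were other filters, pseudocounts, scalings, limma settings and thresholds, the replicate block, a fit of only the 6 libraries compared, and the omission of each library in turn.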

Additional observations from a re-analysis of the deposited data

How the results depend on the processing

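Zbtb9 and Pnoc stayed lower and Ggnbp1 and Fbxo16 higher in exposed libraries in every setting that gave a value. Their differences from control ran from -3.94 to -2.45 (Zbtb9), 1.90 to 3.65 (Ggnbp1), -6.29 to -1.75 (Pnoc) and 0.76 to 2.27 (Fbxo16) in BPAF, and from -4.06 to -2.46, 1.80 to 3.49, -4.45 to -1.66 and 0.89 to 2.66 in BPB, with the far ends at a pseudocount of 0.01. Without 1 control, Zbtb9 and Pnoc no longer passed the filter and have no value. The sign of Itpr3 against control changed in both groups, and that of Cuta (-0.07 to 0.27) and Elp3 (-0.01 to 0.61) in BPB. Between BPAF and BPB no setting called any of the 9, with or without the replicate block, and the difference changed sign for Itpr3 (0.19 without BPAF 1, 0.21 without BPB 2, 0.16 without BPB 3, in a range of -0.47 to 0.21) and Zbtb9 (-0.02 without BPB 3, in a range of -0.02 to 0.08 with 1 library left out and to 0.12 over all settings). For Pnoc it ran from -1.84 at a pseudocount of 0.01 to -0.08. The exact paired test of the log2 ratios, added after seeing the data, gave no call, and 3 pairs allow none.

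Counts over all genes moved more. BPAF against control (3 genes) gave 0 with the replicate block, 0 with its 6 libraries alone and 0 to 2 with 1 library left out (0 without control 1 or 2, 1 without BPAF 1, BPAF 3, any BPB library or control 3). BPB against control (351 genes) gave 774 at a threshold of 0.1, 163 without a filter, 152 and 66 at pseudocounts of 0.1 and 0.01, 19 with the replicate block and 0 to 436 with 1 library left out (132, 1 and 1 without BPB 1, 2 and 3, and 0, 87 and 61 without controls 1, 2 and 3). BPAF against BPB (33 genes) gave 66 at a threshold of 0.1, 11 without a filter, 0 at either smaller pseudocount, 0 with the replicate block, 0 with its 6 libraries alone, 0 with these and the block (added after seeing the data) and 0 to 237 with 1 library left out (237 without BPAF 1, 1 without BPB 1, 0 without any other). The cause was not tested. Between exposed and control libraries the numbers were not shown to pair. Scaling by median ratios moved the median difference of all genes to -0.02 in BPAF and -0.04 in BPB, against 0.21 and 0.15, and 65.4% in place of 80.3% of the BPB calls were higher. The flanking genes had 1 call (Scara5, BPB against control, 6 libraries alone) and the calcium release genes 1 (Atp2a3, BPB against control, without BPAF replicate 1). Taking FPKM in place of reads, Zbtb9 was 9.06% of the pair in BPAF, 9.41% in BPB and 95.03% in control. Levels of Pnoc in exposed libraries rest on 0 to 4 reads, which limits any comparison within them.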
